A study of Homo sapiens with 6 samples.

Results

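BATF3 and its relatives and partners of the BATF, JUN and FOS families were examined in L428, a long-established cell line from human Hodgkin lymphoma. The families were chosen with earlier results of these data known. All probe sets that the platform annotation assigns to the symbol of a single family member were then taken, whatever their values. This gave 27 probe sets for 10 genes (BATF, BATF2, BATF3, JUN, JUNB, JUND, FOS, FOSB, FOSL1 and FOSL2), out of 49393 probe sets and 18244 genes in all. L428 cells that received an siRNA against BATF3 were compared with L428 cells that received a negative control siRNA, with 3 arrays for each. Both groups were nucleofected with 3 µg of siRNA, a form of electroporation, and grown for 48 hours in medium with serum. A single siRNA product was used against BATF3, and whether replicates were grown as separate cultures is not stated, so the p-values speak of the spread among these samples, which may be technical. RNA was read on Affymetrix PrimeView arrays, on which a set of short probes reports each transcript, and the values are those deposited by the authors on a log2 scale.

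These proteins are basic leucine zipper (bZIP) transcription factors, which bind DNA only as pairs. JUN proteins pair with each other or with a FOS protein to form AP-1, whereas FOS proteins do not pair stably with each other. BATF proteins lack the activation domains of FOS, pair mainly with JUN proteins, and with IRF4 or IRF8 bind composite sites that join an AP-1 and an IRF element. Strong JUN and JUNB expression is a known feature of Hodgkin lymphoma cells.

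The array background bears on several of the levels. Background probe sets match no transcript and differ in the number of G and C bases in their probes. The highest of them, rich in G and C, read between 6.68 and 7.32 over the 6 arrays, while the mean of those poor in G and C (3 to 15 bases) lay between 2.06 and 2.20. The bases of the family probes are not in the files, so the background that applies to each lies between these limits. The G and C-rich ones (20 to 25 bases) were dimmer in BATF3 siRNA replicates 2 and 3, where they averaged 5.92 and 5.98, than in BATF3 siRNA replicate 1 and the 3 controls, where they averaged 6.46 to 6.49. Of 11 Hodgkin lymphoma marker genes 8 lay above the highest background probe set on all 6 arrays, among them TNFRSF8 (CD30), and CCL22 lay under it on all 6. Of the B cell markers CD79B and PAX5 lay above it on all 6 arrays, and MS4A1, CD79A and CD22 under it on all 6. All 10 T and NK cell, myeloid and fibroblast markers measured were under it on all 6 arrays. Summed on the linear scale, the T and NK cell markers reached 107.7 to 126.9 after BATF3 siRNA, against 89.8 to 107.1 after control siRNA, and the myeloid ones 56.4 to 65.3 after BATF3 siRNA, against 49.7 to 67.5 after control siRNA. The fibroblast markers reached 89.0 to 124.5 after BATF3 siRNA, against 98.6 to 114.7 after control siRNA. In RNA from a whole culture, fewer cells of a type and less RNA per cell cannot be told apart.

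BATF, BATF3, JUN and JUNB had probe sets above this background in L428, and BATF2 and the 4 FOS family genes did not. In all, 6 of the 27 probe sets lay above the highest background probe set on every array (22.2%, against 37.6% of all probe sets), and 19 lay under it on every array. The other two were a JUN probe set that passed it on 5 arrays and the JUND probe set, which passed it on 2. A value under the highest background probe set does not show that a gene is silent, and the values of different probe sets are not comparable as levels. Within a group of 3 arrays the SD of a family probe set ran between 0.026, for JUND after BATF3 siRNA, and 0.645, for a BATF2 probe set after BATF3 siRNA.

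**Figure D1:**
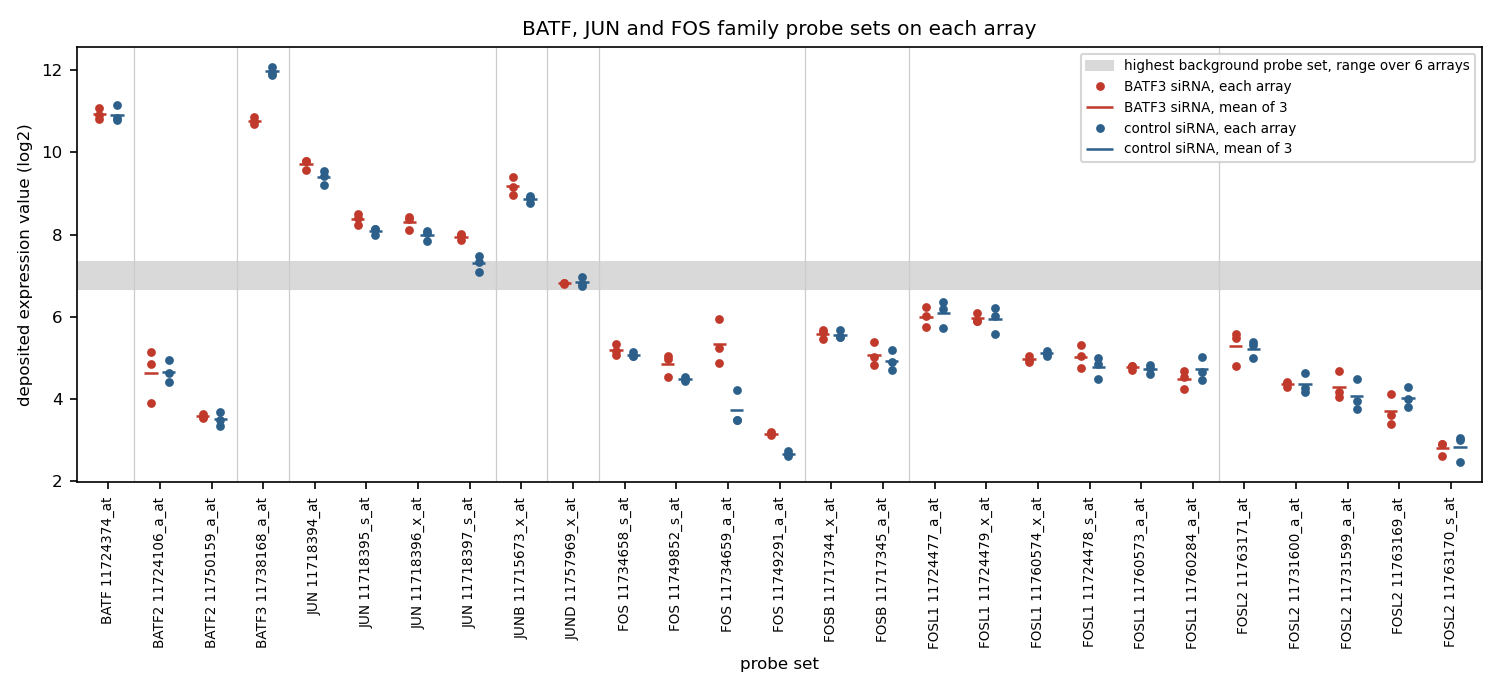
Deposited log2 value (vertical axis) of each of the 27 family probe sets (horizontal axis, grouped by gene) on the 3 BATF3 siRNA arrays (red points) and the 3 control siRNA arrays (blue points), with a bar at each group mean. The grey band spans the highest background probe set of the 6 arrays, 6.68 to 7.32, and the BATF, BATF3, JUNB and 3 of the 4 JUN probe sets lie above it on every array.

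BATF3, the target of the siRNA, was measured by 1 probe set, 11738168_a_at. It read 10.87, 10.76 and 10.69 in the BATF3 siRNA arrays, against 11.89, 12.08 and 11.94 in the control arrays. All 3 BATF3 siRNA values lay below all 3 control values, and the gap between the groups was wider than the spread within either. The log2 change was −1.20 (SE 0.098), which leaves 0.436 of the mRNA seen with control siRNA, with a 95% confidence interval of 0.374 to 0.508 (limma adjusted p = 0.0193 over all probe sets). The means were 10.77 ± 0.088 after BATF3 siRNA and 11.97 ± 0.10 after control siRNA (SD, n = 3 each). An exact two-sided permutation of the arrays reached p = 0.1, below which 6 arrays in 2 equal groups cannot go. Lower BATF3 was the single call among the 27 family probe sets, where 0.00607% of all probe sets were called lower, 0.00405% higher and 0.0101% in either direction. The call was lost without any 1 of the 6 arrays, with changes of −1.24 to −1.14 and adjusted p-values of 0.0528 to 0.191. BATF3 siRNA replicate 1, whose background matched the controls, stood at −1.10 against them when taken alone (adjusted p = 0.864).

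BATF, a close relative of BATF3 and also a partner of JUN proteins, showed no change larger than the spread between replicates. Its probe set, 11724374_at, read 11.08, 10.90 and 10.82 in the BATF3 siRNA arrays and 10.79, 11.15 and 10.83 in the control arrays. The groups overlapped across nearly their whole range. The change was 0.0084 (SE 0.12; limma adjusted p = 0.994), with a 95% confidence interval of −0.27 to 0.28, which leaves room for a shift of up to about 0.28 either way on the log2 scale. Its direction was not stable, since it was −0.015 after quantile normalization and −0.011 after cyclic loess. Subtracting BATF3 from BATF on the same array gave 0.12 to 0.21 in the BATF3 siRNA arrays and −1.11 to −0.94 in the control arrays. The sign of this difference does not say which gene is expressed more, since values of different probe sets are not comparable as levels. For all 9 relatives, each by its probe set with the highest mean, this difference was higher after BATF3 siRNA, by 1.11 to 1.51, which restates the fall of BATF3 and is no separate result.

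BATF2, an interferon-inducible member of the BATF family, had 2 probe sets, and both were under the highest background probe set on every array. Probe set 11724106_a_at read 3.90, 5.14 and 4.85 after BATF3 siRNA and 4.63, 4.94 and 4.41 after control siRNA, which differ by −0.030 (SE 0.28; limma adjusted p = 0.991). The lowest and the highest of these 6 values were both BATF3 siRNA arrays, replicates 1 and 2. Probe set 11750159_a_at stayed between 3.35 and 3.69 on all 6 arrays, with a change of 0.061 (adjusted p = 0.939).

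JUN, a founding member of AP-1 and a partner of every BATF protein, had 4 probe sets, and on each of them every BATF3 siRNA value exceeded every control value. The same held for 6.38% of all probe sets. None of the 4 JUN probe sets passed the threshold over all probe sets, with limma adjusted p-values of 0.272 to 0.635. Probe set 11718397_s_at read 7.98, 7.87 and 8.01 after BATF3 siRNA and 7.48, 7.10 and 7.33 after control siRNA. Here the BATF3 siRNA arrays were tightly grouped and control siRNA replicate 2 was the lowest. Its change was +0.65 (SE 0.11; limma adjusted p = 0.272), a ratio of 1.57 with a 95% confidence interval of 1.31 to 1.87. It ranked 45 of 49393 by p. The probe set with the highest mean, 11718394_at, read 9.78, 9.56 and 9.80 after BATF3 siRNA and 9.56, 9.22 and 9.42 after control siRNA, so that BATF3 siRNA replicate 2 (9.561) and control siRNA replicate 1 (9.558) were nearly equal. Its change was +0.31 (SE 0.12; limma adjusted p = 0.635), a ratio of 1.24 (1.04 to 1.49). The other two, 11718395_s_at and 11718396_x_at, stood at +0.28 and +0.31 (adjusted p = 0.635 for each). Probe sets of these classes (_s_at and _x_at) can also bind other transcripts, and the 4 probe sets report a single gene and are not independent of each other.

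JUNB, a JUN relative that is constitutively expressed in Hodgkin lymphoma, had 1 probe set, 11715673_x_at. It read 9.40, 8.97 and 9.17 in the BATF3 siRNA arrays and 8.95, 8.90 and 8.77 in the control arrays. All 3 BATF3 siRNA arrays were higher, with BATF3 siRNA replicate 2 only just above control siRNA replicate 1. The change was +0.31 (SE 0.12; limma adjusted p = 0.662), a ratio of 1.24 (95% confidence interval 1.02 to 1.50).

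JUND, the JUN family member usually expressed at a steady level, was measured by 11757969_x_at. It read 6.83, 6.79 and 6.83 after BATF3 siRNA and 6.80, 6.76 and 6.98 after control siRNA, with the groups overlapping. The change was −0.029 (SE 0.095; limma adjusted p = 0.972), with an interval of −0.24 to 0.18. Whether JUND differed from JUN and JUNB in its response was not tested.

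**Figure D2:**
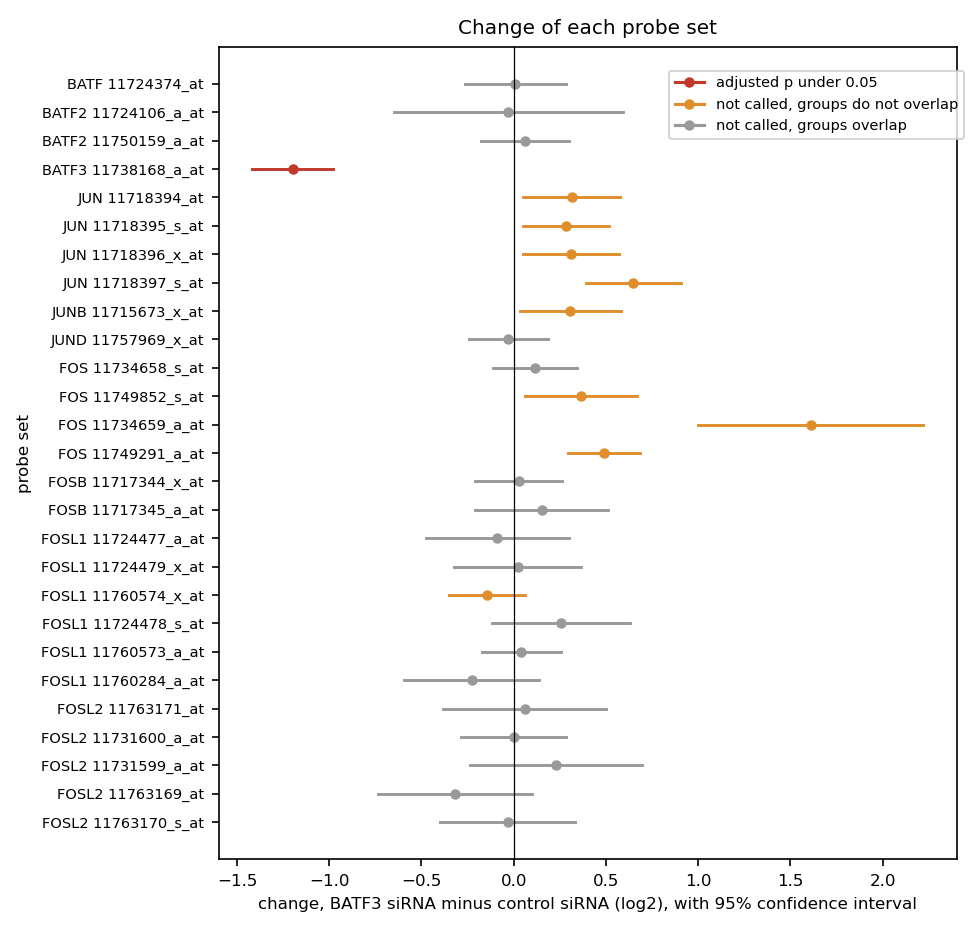
Change of each family probe set (vertical axis) as BATF3 siRNA minus control siRNA on the log2 scale (horizontal axis), with its 95% confidence interval from limma; 3 arrays per group. BATF3 at −1.20 is called (red), 9 further probe sets have groups that do not overlap (orange), 8 of them higher and all from JUN, JUNB and FOS, and the rest overlap (grey). Over all probe sets 12.2% have groups that do not overlap.

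The promoters of JUN, JUNB and FOS, whose probe sets stood higher after BATF3 siRNA, are shown with that of JUND, which did not, because AP-1 proteins are known to act on the JUN promoter through an AP-1-like element. Each sequence holds the 250 bases before the RefSeq start of the gene in GRCh38.p14, written 5′ to 3′ on the strand of the gene. Capitals mark matches to TGANTCA, the AP-1 element, or to TGANNTCA, its form with 1 more base that includes the CRE, on either strand.
JUN, chr1:58784048-58784297, minus strand: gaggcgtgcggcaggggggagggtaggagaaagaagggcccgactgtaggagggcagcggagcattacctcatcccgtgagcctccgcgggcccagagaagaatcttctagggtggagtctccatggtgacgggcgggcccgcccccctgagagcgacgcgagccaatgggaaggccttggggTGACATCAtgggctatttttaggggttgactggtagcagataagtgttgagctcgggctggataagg
JUNB, chr19:12791236-12791485, plus strand: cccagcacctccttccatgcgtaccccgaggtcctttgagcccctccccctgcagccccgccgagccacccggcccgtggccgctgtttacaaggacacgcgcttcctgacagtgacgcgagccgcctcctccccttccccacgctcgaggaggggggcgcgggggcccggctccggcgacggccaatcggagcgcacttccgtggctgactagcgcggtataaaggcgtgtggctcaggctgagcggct
FOS, chr14:75278578-75278827, plus strand: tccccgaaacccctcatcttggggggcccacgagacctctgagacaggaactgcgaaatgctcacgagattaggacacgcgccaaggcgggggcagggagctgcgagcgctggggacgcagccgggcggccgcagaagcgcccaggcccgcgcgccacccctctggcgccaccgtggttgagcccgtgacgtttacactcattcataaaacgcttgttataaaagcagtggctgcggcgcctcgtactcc
JUND, chr19:18281623-18281872, minus strand: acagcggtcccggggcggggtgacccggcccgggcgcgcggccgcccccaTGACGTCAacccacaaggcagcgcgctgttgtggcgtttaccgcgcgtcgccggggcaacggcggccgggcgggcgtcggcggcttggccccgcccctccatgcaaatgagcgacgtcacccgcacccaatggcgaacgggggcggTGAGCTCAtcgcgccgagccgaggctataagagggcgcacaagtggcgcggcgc

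The JUN promoter held 1 match, TGACATCA, from 67 to 60 bases before the start. The JUND promoter held TGACGTCA, from 200 to 193 bases before the start, and TGAGCTCA, from 54 to 47 before it. These windows of JUNB and FOS held neither motif. RefSeq promoters were matched for 8 of the 10 genes, all but BATF3 and FOSL1, and 3 of the 8 held a match, the third being BATF2 with TGACATCA. Of all 35116 promoters of this length 6.57% held TGANTCA, 10.1% held TGANNTCA and 15.85% held either. Only exact matches were searched, so elements like AP-1 or CRE sites that depart from these letters are neither marked nor counted. A match is a description of the letters in this window, and the arrays do not measure binding.

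FOS, a partner of JUN that cells switch on within minutes of a growth or stress signal, had 4 probe sets. On 3 of them every BATF3 siRNA value exceeded every control value, which held for 6.38% of all probe sets. All 4 FOS probe sets lay under the highest background probe set on every array, so differences are given on the log2 scale and no ratio is given. Probe set 11734659_a_at read 5.23, 4.88 and 5.93 after BATF3 siRNA and 4.22, 3.49 and 3.49 after control siRNA. BATF3 siRNA replicate 3 was the highest and control siRNA replicate 1 the highest of the controls, and the lowest BATF3 siRNA value was above it. The change was +1.61 (SE 0.27; limma adjusted p = 0.259), with an interval of 1.00 to 2.22, and it ranked 35 of 49393 by p. Probe set 11749291_a_at read 3.17, 3.12 and 3.19 after BATF3 siRNA and 2.67, 2.72 and 2.61 after control siRNA, tight in both groups, at +0.49 (SE 0.087; limma adjusted p = 0.272). It ranked 50 by p, although its values lay near the background of probes poor in G and C (2.06 to 2.20). Probe set 11749852_s_at read 5.04, 4.97 and 4.53 after BATF3 siRNA and 4.44, 4.52 and 4.48 after control siRNA. It was clearly higher in BATF3 siRNA replicates 1 and 2 only, at +0.36 (SE 0.13; limma adjusted p = 0.635). The fourth, 11734658_s_at, read 5.34, 5.18 and 5.07 after BATF3 siRNA and 5.05, 5.05 and 5.15 after control siRNA, with overlap, at +0.11 (SE 0.10; limma adjusted p = 0.861). The probe sets of FOS thus shared a direction but differed in size from 0.11 to 1.61.

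**Figure D3:**
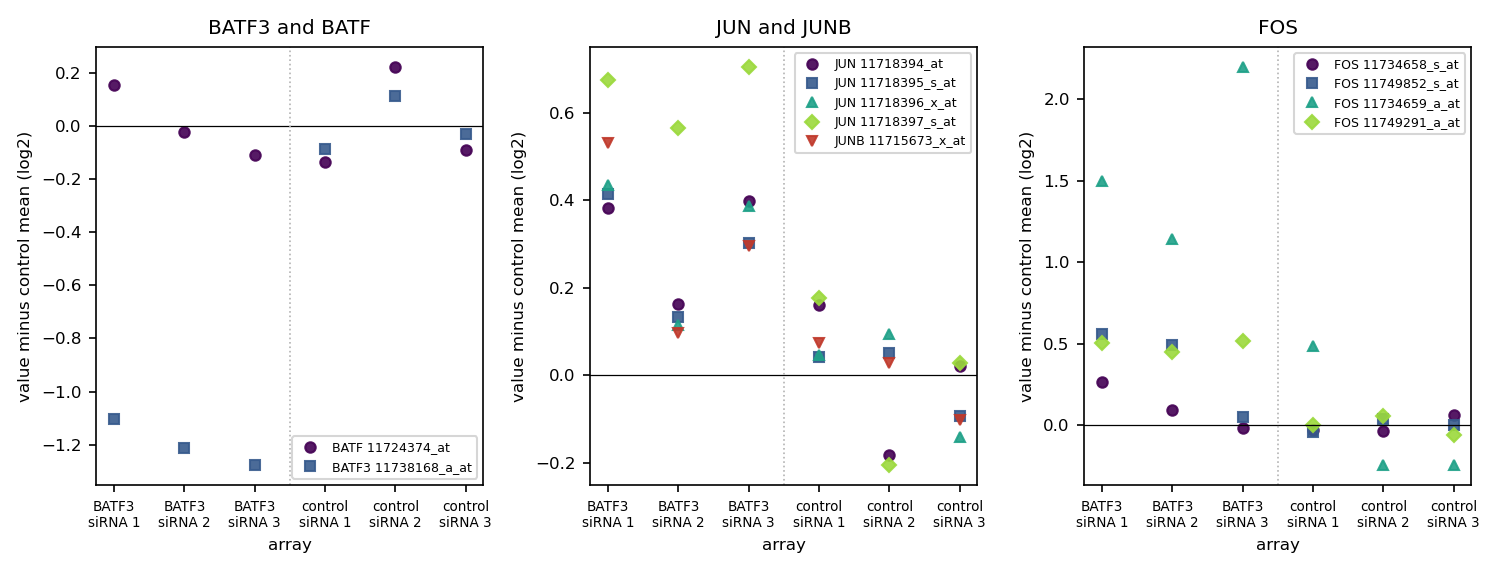
Values of BATF3 and BATF (left), JUN and JUNB (middle) and FOS (right) on each of the 6 arrays (horizontal axis), after subtracting the mean of the 3 control arrays of the same probe set (vertical axis, log2; the scale differs between panels). Each symbol is a probe set; on the 3 BATF3 siRNA arrays BATF3 lies more than 1 below 0 while JUN and JUNB lie above 0, and FOS 11734659_a_at stands highest in BATF3 siRNA replicate 3.

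Counted over the families, the groups did not overlap for 10 of 27 probe sets (37.0%), where 12.2% of all probe sets had such groups. All BATF3 siRNA arrays were above for 8 of them (29.6%, against 6.38% of all probe sets) and below for 2, BATF3 and FOSL1 11760574_x_at (5.86% of all probe sets). An unadjusted p under 0.05 was reached by 9 of 27 probe sets (33.3%, against 7.16% of all), 8 higher (3.77% of all) and BATF3 lower (3.39% of all). All 8 higher ones belong to JUN, JUNB and FOS, so they stand for 3 genes. The median change over the 27 probe sets was 0.060 and 18 were positive, whereas the median over all 49393 was −0.0036 and 48.9% were positive. BATF3 siRNA replicate 1, the 1 array of its group with the background of the controls, lay above all 3 controls on all 9 JUN, JUNB and FOS probe sets. For the 8 whose groups did not overlap this restates the count above and is no separate result. With the G and C-rich background of each array as a covariate the JUN changes were 0.40 to 0.69, JUNB was at 0.53 and FOS 11734659_a_at at 1.58, and 0 probe sets of any gene were called by limma (2821 at an unadjusted p under 0.05), BATF3 included. With limma's array weights 3 of these probe sets passed, JUN 11718397_s_at, FOS 11734659_a_at and FOS 11749291_a_at (adjusted p = 0.0484, 0.0484 and 0.0482). Calls rose over the whole array in this setting, to 67 of 49393 probe sets from 5 without weights. An unadjusted p under 0.05 in limma was reached by 8706 probe sets with weights and 3538 without. Control siRNA replicate 3 then carried a weight of 3.51, against 0.41 to 1.38 for the other 5 arrays.

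The remaining FOS family genes gave no common direction. FOSB, an immediate early relative of FOS, had 2 probe sets between 4.70 and 5.69 on all arrays, at +0.026 and +0.15 (lowest adjusted p = 0.887), with overlap in both. FOSL1 (FRA1), which lacks the activation domain of FOS, had 6 probe sets between 4.24 and 6.36, 3 positive and 3 negative, from −0.23 to +0.25. On FOSL1 11760574_x_at the BATF3 siRNA values (5.05, 4.95 and 4.90) were all under the control values (5.06, 5.18 and 5.10). BATF3 siRNA replicate 1 (5.053) nearly touched control siRNA replicate 1 (5.058), and the change was −0.15 (SE 0.091; limma adjusted p = 0.798). FOSL2 (FRA2), another relative without that domain, had 5 probe sets between 2.46 and 5.57, 2 positive and 3 negative, from −0.32 to +0.23 (lowest adjusted p = 0.784). None of these 13 probe sets passed the highest background probe set on any array.

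Genes that work with these families were followed by lists, with the probe set of highest mean standing for each gene. Over all 18244 genes the median change was −0.0027 and 49.0% were positive, and limma called 0 members of these lists, where 0.011% of all genes were called. An unadjusted p under 0.05 was reached by 4 of the 27 other bZIP factors, 0 of the 4 IRF and ETS partners, 0 of the 15 upstream kinases and SRF factors, 2 of the 7 genes that limit JUN and FOS and 5 of the 24 AP-1 target genes, where 6.65% of all genes reached it. Among 27 other bZIP factors, many of them possible partners of JUN or FOS, 18 were positive and the median was 0.062. BACH2, a transcriptional repressor, averaged 5.94 ± 0.23 with BATF3 siRNA, against 6.51 ± 0.10 with control siRNA (SD, n = 3 each). Its change was −0.57 (limma adjusted p = 0.390), and it lay under the highest background probe set on every array. ATF3, a stress-induced factor that pairs with JUN, read 10.87 ± 0.069 and 10.46 ± 0.11 (BATF3 siRNA and control siRNA), at +0.41 (limma adjusted p = 0.418), and its groups did not overlap. CEBPB and DDIT3, named after their values were seen, were the other two bZIP genes with an unadjusted p under 0.05, both at +0.44 (limma adjusted p = 0.464 for CEBPB and 0.461 for DDIT3).

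The IRF and ETS partners that share composite sites with AP-1 or BATF, 4 genes, had 2 positive changes and a median of −0.041. IRF4, named here as the partner of BATF in such sites, stayed at 12.33 ± 0.037 after BATF3 siRNA and 12.30 ± 0.16 after control siRNA (SD, n = 3 each; +0.033, limma adjusted p = 0.970). IRF8 was at +0.15 and SPIB at −0.25, where SPIB lay under the highest background probe set on every array. Among 15 kinases and SRF factors that act upstream of JUN and FOS, 7 were positive with a median of −0.069, and the 2 members with the smallest p were MRTFA, a coactivator of SRF, at −0.25 and MAP2K4, a kinase that activates JNK, at +0.19. Among 7 genes that limit JUN and FOS protein or mRNA, 5 were positive with a median of 0.072. ZFP36L1, which promotes decay of mRNAs with AU-rich elements, was at +0.41 (limma adjusted p = 0.458), and ZFP36, which targets the same elements, at +0.35.

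Among 24 AP-1 target genes 13 were positive and the median was 0.0023, close to that of all genes. DUSP1, a phosphatase that inactivates MAP kinases, averaged 7.71 ± 0.11 with BATF3 siRNA, against 7.21 ± 0.13 with control siRNA (SD, n = 3 each), at +0.50 (limma adjusted p = 0.352). PLAU, the urokinase gene, was at +0.40 (limma adjusted p = 0.506). For both genes the groups did not overlap. Over this list all BATF3 siRNA arrays were above for 3 genes and below for 2. Over all probe sets 6.38% lay above and 5.86% below, and the share over genes was not computed. The third gene above, named after its values were seen, was MMP3 at +0.37 (limma adjusted p = 0.579). It lay under the highest background probe set on every array. The genes below, named after their values were seen, were CD44 at −0.31 (limma adjusted p = 0.580) and CCND1 at −0.13 (limma adjusted p = 0.819). TNFRSF8, which encodes CD30 and is driven by AP-1 in Hodgkin lymphoma, was named for that role and stood at −0.064 (limma adjusted p = 0.928). The Hodgkin lymphoma markers had a median of 0.0081, with TRAF1 at +0.21 and CCL22 at +0.23. The other marker lists had medians of 0.047 for B cells (MS4A1 +0.19, CD22 +0.059), 0.13 for T and NK cells (NKG7 +0.40, CD3E +0.14), 0.10 for myeloid cells (CD163 +0.43, CD14 +0.20) and −0.14 for fibroblasts (COL1A2 −0.29, COL1A1 −9.5e-05). Their part in the changes above was not tested.

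**Figure D4:**
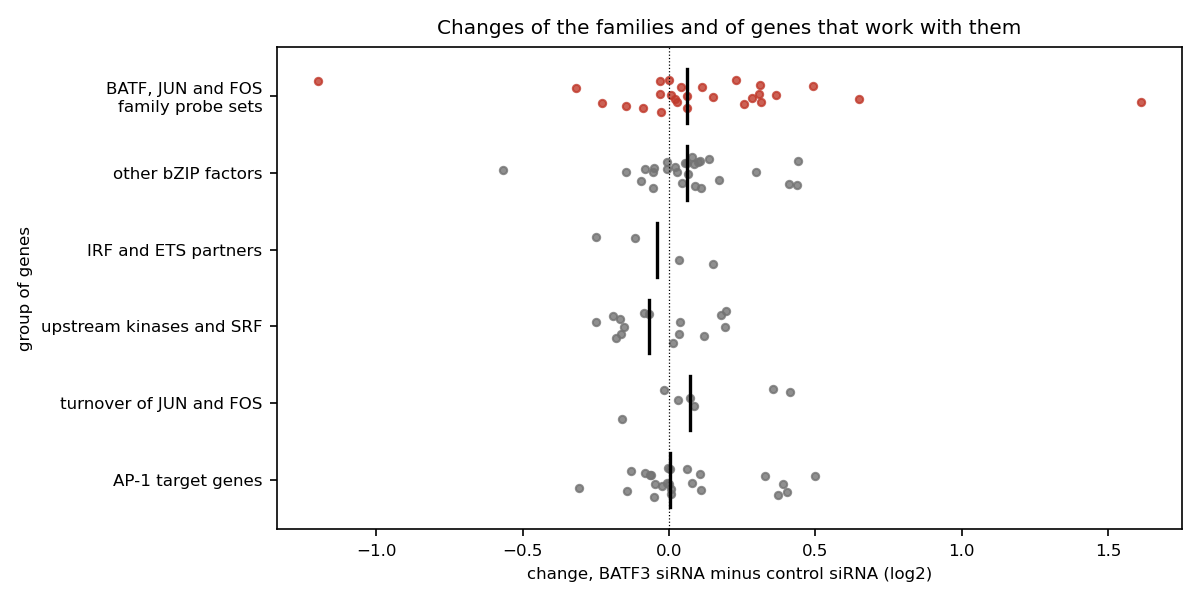
Change on the log2 scale (horizontal axis), BATF3 siRNA minus control siRNA, of the 27 family probe sets (red points) and of the genes in 5 lists (grey points, 1 probe set per gene; vertical scatter is random), with a black bar at each median. The medians run from −0.069 to 0.072. The family points run from −1.20, BATF3 itself, to +1.61, a FOS probe set under the highest background probe set on every array. All family probe sets are shown, against 1 per gene in the lists, so these ranges are not like for like. By the rule of the lists, the probe set of highest mean, the relatives of BATF3 run from −0.088 (FOSL1) to +0.31 (JUN). The lists run from −0.57 (BACH2) to +0.50 (DUSP1).

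The probe sets most like BATF3 across the 6 arrays were found by the root mean square distance between profiles, after subtracting the mean of each probe set over the arrays, among 22812 probe sets with values at or above the median. The 5 nearest genes were THRA (distance 0.143), a thyroid hormone receptor, CD244 (0.190), a receptor of the SLAM family, CFAP57 (0.240), CNN2 (0.246), an actin-binding protein, and S1PR1 (0.248), a sphingosine 1-phosphate receptor. They were picked for this likeness, so their changes are a description: −1.09 for THRA, −1.39 for CD244, −0.84 for CFAP57, −0.72 for CNN2 and −0.79 for S1PR1. BATF3 itself had a distance of 0.604 from a flat profile. THRA lay above the highest background probe set on 1 array and CFAP57 on 0. For FOS the rule used the probe set with the highest mean, 11734658_s_at, whose profile was nearly flat, and the nearest genes (ATG4B, MTRF1L, RHOF, SLC7A5 and CDC42, at distances of 0.019 to 0.029) were about as flat, with changes of +0.090 to +0.11.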

How the data were processed

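Total RNA of 6 L428 samples was hybridised to PrimeView arrays. The authors deposited 1 log2 value per probe set and array, whose base was inferred from their range. The submitters' processing notes name affy, with no version, and the background correction, normalization and summarization are steps not given in the sources used here. There were 49495 probe sets, 102 of them controls, which were left out. The platform annotation, dated before current RefSeq, lists 1 gene for 45278 probe sets, several for 1333 (none a member) and no gene for 2782.

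All 49393 probe sets were fitted with lmFit and eBayes of limma 3.58.1 (R 4.3.3), BATF3 siRNA minus control siRNA, two-sided. Adjustment was by Benjamini-Hochberg over all of them, and a probe set was called when this adjusted p was under 0.05, whatever its fold. Confidence intervals (95%) rest on 9.37 degrees of freedom, of which 4 are residual. Precision is limited by having 6 arrays (median SE 0.11). The fit was tested on simulated data. Motifs were searched in Python 3.11.15.

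Named genes were all family members, the 2 members of each list that came first by p (no list had a call), and the 5 genes nearest to BATF3 and to FOS in profile. The members, lists and tests were chosen with earlier results of these data known. Alternatives covered normalization, dim probe sets, 1 probe set per gene, array weights, the prior, the replicate number, array background and leaving out arrays.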

Additional observations from a re-analysis of the deposited data

How the results depend on the processing

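BATF3 stayed lower in all alternatives run. Its change was −1.11 with the G and C-rich background as a covariate and −1.10 for BATF3 siRNA replicate 1 alone against the controls, a setting added after seeing the data, and −1.24 to −1.14 when each array was left out in turn, and in these settings it was not called. All of them leave fewer degrees of freedom, but so does the replicate block described below, with which BATF3 was called. Why the call was lost was not tested. The count of called probe sets over all genes was 5, and it was 11 without dim probe sets, 3 with 1 probe set per gene, 67 with array weights, 9 with an intensity trend and a robust prior, 0 with the covariate (2821 at an unadjusted p under 0.05 in limma), 0 for replicate 1 alone (2314), which assumes that this array varies like the controls, and 0 to 2 with an array left out (2303 to 5426). Family probe sets called numbered 4 with array weights, 0 with the covariate, 0 for replicate 1 alone and 0 with any array left out, and the lists had 0 calls in all alternatives. The median change of the family probe sets was 0.060, and 0.035 to 0.14 with an array left out, highest without control siRNA replicate 3. JUN, JUNB and FOS kept positive changes in all 134 alternative fits of their 9 probe sets, but many of these fits could not have come out otherwise. Where the groups do not overlap, leaving out arrays cannot reverse the direction. The replicate block, the prior and the choice of probe sets leave the change itself as it is. With the replicate number as a replicate block, 5 probe sets were called, BATF3 among them (−1.20). Deviations of same-numbered arrays correlated at 0.0014, 0.13 and −0.031 across probe sets, so the numbers were not taken to pair the arrays.

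None of the probe sets that changed direction was called, and the causes were not tested. After quantile normalization BATF was at −0.015, COL1A1 at 0.020 and FOSL2 11731600_a_at at 0.014. After cyclic loess the same were at −0.011, 0.020 and 0.015, and after median centring COL1A1 was at 0.022 and FOSL2 11731600_a_at at 0.021. With array weights BATF2 11724106_a_at was at 0.28, BATF2 11750159_a_at at −0.039, CD22 at −0.083, FOSL1 11724477_a_at at 0.092 and FOSL2 11763171_at at −0.072. With the background covariate COL1A1 was at 0.33, FOSL1 11724477_a_at at 0.16, FOSL1 11760573_a_at at −0.020, FOSL2 11731600_a_at at 0.028 and SPIB at 0.13. For replicate 1 alone the values were 0.34 for COL1A1, 0.15 for FOSL1 11724477_a_at, −0.020 for FOSL1 11760573_a_at, −0.027 for FOSL2 11731599_a_at, 0.049 for FOSL2 11731600_a_at and 0.15 for SPIB. With each array left out in turn, changes ran from −0.064 to 0.12 for BATF, −0.28 to 0.33 for BATF2 11724106_a_at, −0.019 to 0.15 for BATF2 11750159_a_at, −0.048 to 0.14 for CD22, −0.17 to 0.14 for COL1A1 and −0.071 to 0.037 for JUND. They ran from −0.023 to 0.096 for FOSB 11717344_x_at, −0.27 to 0.045 for FOSL1 11724477_a_at, −0.16 to 0.16 for FOSL1 11724479_x_at and −0.016 to 0.091 for FOSL1 11760573_a_at. For FOSL2 they ran from −0.096 to 0.14 (11731600_a_at), −0.22 to 0.081 (11763170_s_at) and −0.083 to 0.30 (11763171_at).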

Other observations

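Several of these genes lie close to each other in the genome. In RefSeq GRCh38.p14, FOS, JDP2 and BATF are consecutive protein-coding genes on chromosome 14. JDP2, a bZIP repressor that pairs with JUN, was at +0.062 (SE 0.14; limma adjusted p = 0.956). Beside it BATF was at +0.0084, and the 4 FOS probe sets ran from +0.11 to +1.61, none of them called. JDP2 and all FOS probe sets lay under the highest background probe set on every array. On chromosome 1 a single protein-coding gene lies between ATF3 and BATF3. Beside BATF3 at −1.20, ATF3 was at +0.41, with all 3 BATF3 siRNA arrays above the 3 controls.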
